A study of Brassica rapa with 30 samples.

Results

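Bra020445 is 1 of the 42186 gene rows counted in every library of the series, and it was followed through all 30 libraries by its identifier. It was put forward as a copy of VIN3. Neither the count tables nor the RefSeq gene table used here pairs the identifier with a name, a position or a sequence, so VIN3 is its working name and was not checked against an annotation. The libraries came from whole plants of Brassica rapa, of the cultivar Chiifu, labelled late flowering, and the cultivar LP08, labelled early flowering. Plants of both cultivars were raised in a greenhouse for 3 weeks. The NV group had no cold, the groups V1, V20 and V40 had cold for 1, 20 and 40 days, and V40T10 had 10 warm days following its 40 cold ones. Each of the 10 groups held 3 libraries. The labels do not say whether these came from separate or pooled plants, and p-values then measure the spread between libraries, which may be technical. No group holds untreated plants of the age that cold-treated ones had reached, so each comparison with NV joins the cold with the time that passed.

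VIN3 (VERNALIZATION INSENSITIVE 3) is known from Arabidopsis as a PHD-finger protein of the vernalization response, the process by which a long cold season makes plants competent to flower. In Arabidopsis its transcript is scarce in warm-grown plants, builds up over weeks of cold and is lost soon after the return to warmth. The protein works with the Polycomb complex PRC2 at the floral repressor gene FLC, and the silencing of FLC outlasts VIN3 itself. Brassica rapa descends from a triplicated ancestral genome, and many Arabidopsis genes have several copies in it. In whole plants, fewer cells with a transcript and less transcript per cell cannot be told apart.

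A library held between 16926920 and 26595834 counts on genes. Levels are given in CPM, counts per 1000000 of the TMM-scaled library size, and differences were tested with edgeR's quasi-likelihood test on all 28712 genes that passed the filter on low counts, with Benjamini-Hochberg adjustment over these genes and a threshold of 0.05. Some libraries stood apart in single gene rows. In Chiifu NV, 23 genes in replicate 2 and 20 in replicate 3 had no count although each of the other 14 Chiifu libraries held at least 2 CPM, and the highest such number in the 12 Chiifu libraries outside NV was 1. In LP08, genes were sought with at least 1 CPM in each of the 9 V1, V40 and V40T10 libraries. Of these, 4 had no count in any NV library or in V20 replicate 1 but had counts in V20 replicates 2 and 3. Bra020445 shares with these genes the 0 counts in the LP08 NV libraries, while LP08 V20 replicate 1 held 264 of its counts. The part of this pattern in the LP08 NV value of Bra020445 was not tested, and each comparison with LP08 NV rests on these libraries.

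Bra020445 was low without cold, high after 20 and 40 days of cold and low again after 10 days of warmth in both cultivars. As a ratio, the cultivars differed most at NV, V1 and V40T10. In Chiifu, 5.8 to 8.32 CPM were present before any cold, and in LP08 not a single count was. On the log2 scale the response of LP08 was therefore far greater than that of Chiifu, while the number of CPM gained by V40 was 18.4 in Chiifu and 17.6 in LP08.

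**Figure D1:**
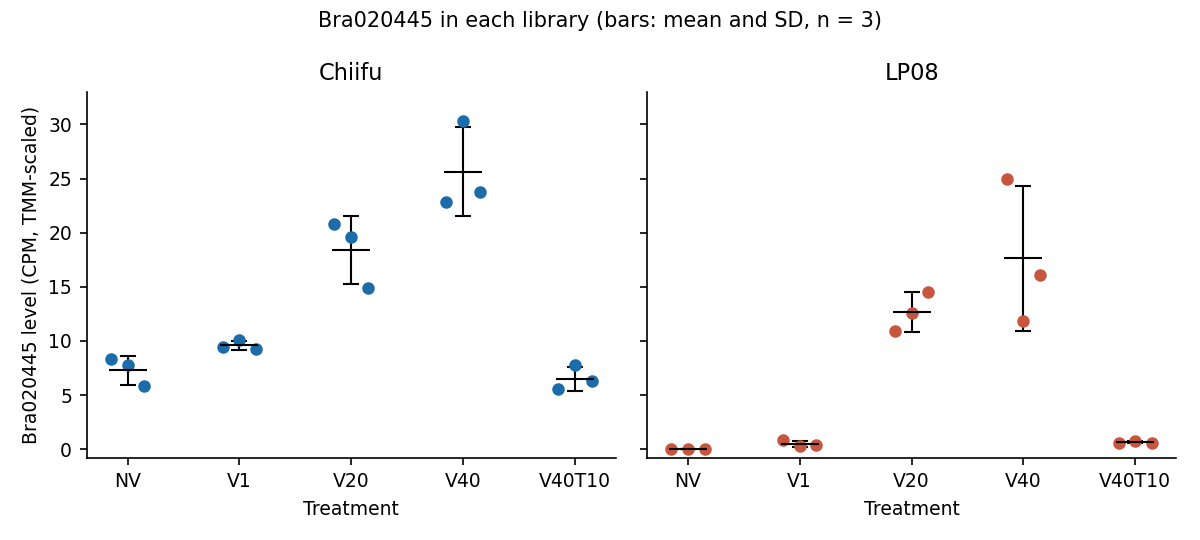
Bra020445 level (CPM, TMM-scaled, linear axis) in each library of Chiifu (left) and LP08 (right) by treatment; points are libraries and black bars the mean and SD of 3. The NV, V1 and V40T10 points of LP08 lie at or near 0, and those of Chiifu between 5.54 and 10.0 CPM.

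Before any cold, the 3 Chiifu libraries held 174, 168 and 91 counts of Bra020445, which were 8.32, 7.73 and 5.8 CPM, a mean of 7.29 ± 1.32 CPM (SD, n = 3). The 3 LP08 libraries held 0 counts. A count of 0 over the whole group allows a level of up to 0.0512 CPM, taking 3 counts as the limit, as far as counting error goes. The groups did not overlap, and the Chiifu mean was 142 times this limit, its lowest library 113 times. The difference passed the test with an edgeR adjusted p of 4.69e-12, in a comparison in which 45% of all genes tested were called.

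After 1 day of cold, Chiifu libraries held 9.46, 10.0 and 9.26 CPM, a mean of 9.59 ± 0.409 CPM (SD, n = 3). All 3 lay above all 3 NV libraries, but the log2 difference of 0.39 (SE 0.23, 95% interval -0.09 to 0.87) did not pass the test (edgeR adjusted p 0.169), where 50.2% of genes were called. In LP08 the V1 libraries held 14, 6 and 8 counts, or 0.826, 0.336 and 0.381 CPM, with a mean of 0.514 ± 0.271 CPM. This mean was 10.0 times the limit for NV and the lowest library 6.56 times. The difference from NV passed the test (edgeR adjusted p 2.05e-05, with 42.2% of genes called). The LP08 level at V1 was thus detectable and low, and it was 5.36% of that of Chiifu at the same time. That gap was 18.8-fold, a log2 difference of -4.23 (SE 0.34, edgeR adjusted p 1.39e-10, with 43.1% of genes called).

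After 20 days of cold the level was high in both cultivars. Chiifu libraries stood at 20.8, 19.6 and 14.9 CPM, a mean of 18.4 ± 3.12 CPM, and LP08 libraries at 10.9, 12.5 and 14.5 CPM, a mean of 12.7 ± 1.82 CPM (SD, n = 3 each). No V20 library overlapped with an NV or V1 library of its cultivar. Against NV the level rose 2.52-fold in Chiifu, a log2 change of 1.33 (SE 0.23, edgeR adjusted p 7.08e-05, with 44.2% of genes called). This call was lost in limma voom with group weights, which gave an adjusted p of 0.0571; over the alternatives the adjusted p ranged from 4.62e-07 to 0.0571. In LP08 the mean was 247 times the limit for NV and the lowest library 213 times. That rise passed the test (edgeR adjusted p 1.53e-12, with 40.1% of genes called).

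The step from V1 to V20 can be given as a fitted change in both cultivars, since LP08 had counts at both times. In Chiifu the level rose 1.92-fold, a log2 change of 0.94 (SE 0.23, edgeR adjusted p 0.0026, with 33.2% of genes called). In LP08 it rose 24.8-fold, a log2 change of 4.63 (SE 0.34, edgeR adjusted p 3.43e-10, with 34.3% of genes called). The cultivars' steps differed by a log2 value of 3.69 with an SE of 0.41 (edgeR adjusted p 6.96e-06), a test in which 4.82% of genes were called. Among all genes tested, 125 had a higher log2 change than Bra020445 in LP08, and 3380 had a higher one in Chiifu.

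After 40 days of cold the means were the highest of each cultivar. Chiifu libraries stood at 22.9, 30.4 and 23.7 CPM, a mean of 25.7 ± 4.1 CPM, and LP08 libraries at 24.98, 11.8 and 16.1 CPM, a mean of 17.6 ± 6.71 CPM (SD, n = 3 each). The LP08 V40 libraries were unequal, with a coefficient of variation of 38.0% and an SD 7.18 times the SD that counting alone would give. Replicate 2 of this group lay within the range of V20, and replicate 1 was level with Chiifu. Against NV the level rose 3.51-fold in Chiifu, a log2 change of 1.81 (SE 0.23, edgeR adjusted p 1.51e-06, with 45.9% of genes called). In LP08 the mean was 344 times the limit for NV and the lowest library 231 times. That rise passed the test (edgeR adjusted p 9.09e-13, with 35.2% of genes called). In Chiifu, 1174 of the genes tested had a higher log2 change than Bra020445 at V40.

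Whether the level still rose between 20 and 40 days was not settled by these libraries. The log2 difference was 0.48 in Chiifu (SE 0.22, 95% interval 0.02 to 0.94, edgeR adjusted p 0.499) and 0.48 in LP08 (SE 0.23, 95% interval 0.01 to 0.95, edgeR adjusted p 0.355). These intervals are not adjusted for the number of genes. Few genes were called between these times in the edgeR fit, with 0.261% in Chiifu and 2.05% in LP08. The V40 and V20 libraries of Chiifu did not overlap, and those of LP08 did. With limma voom weights per group the Chiifu step passed with an adjusted p of 0.0491, in a test that called 6.21% of genes. V20 means were 71.8% of V40 means in both cultivars (SE 9.66 in Chiifu and 16.9 in LP08, in percentage points). The difference between the cultivars' steps was 0.000 on the log2 scale with a 95% interval of -0.65 to 0.65 (edgeR adjusted p 1.00), in a test that called 0.143% of genes. These values rest on the unequal LP08 V40 libraries. Without LP08 V40 replicate 1 the LP08 step was 0.14 and the difference between the steps -0.34, and without replicate 2 they were 0.70 and 0.22.

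**Figure D2:**
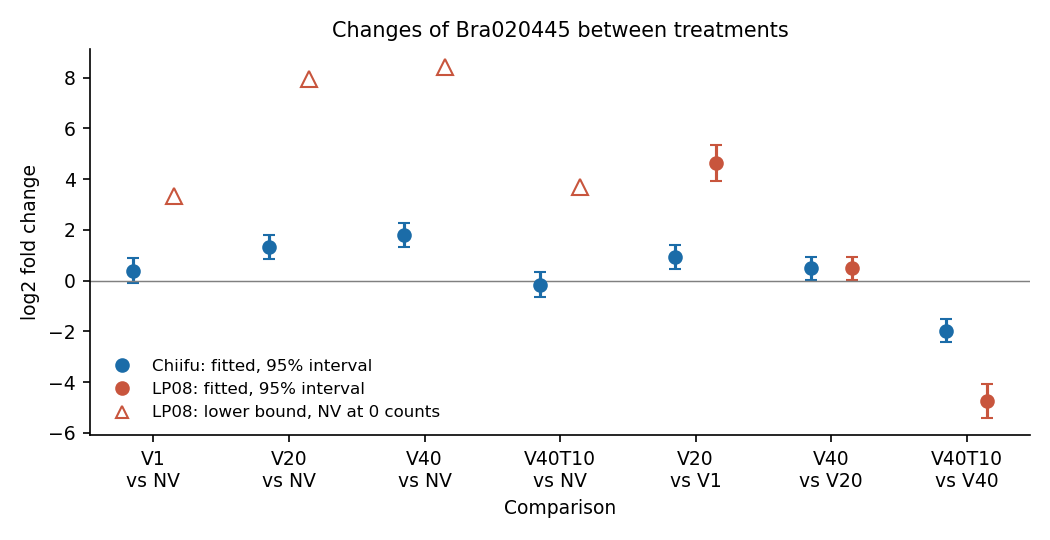
Log2 fold change of Bra020445 between treatments in Chiifu (blue) and LP08 (red). Circles are fitted values with 95% intervals. Open triangles, labelled lower bound, are LP08 means over the limit of 3 counts for its NV libraries, which held 0 counts. They leave out the error of these means and are not strict lower bounds. Changes of LP08 lie far above those of Chiifu against NV and from V1 to V20, coincide with them from V20 to V40, and lie below them from V40 to V40T10.

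Per day in the cold, the mean gain between V1 and V20 was 0.465 ± 0.0957 CPM in Chiifu and 0.64 ± 0.0558 CPM in LP08 (SE). Between V20 and V40 it was 0.362 ± 0.149 CPM per day in Chiifu and 0.249 ± 0.201 CPM per day in LP08. The mean gain per day was lower in the later interval in both cultivars, with wide errors, and no test was run on these rates.

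After 40 days of cold and 10 days of warmth, Bra020445 was low again. Chiifu libraries held 5.54, 7.73 and 6.29 CPM, a mean of 6.52 ± 1.11 CPM, and LP08 libraries 0.607, 0.766 and 0.61 CPM from 10, 11 and 12 counts, a mean of 0.661 ± 0.0907 CPM (SD, n = 3 each). Against V40 the Chiifu level was 3.92-fold lower, a log2 change of -1.97 (SE 0.23, edgeR adjusted p 3.83e-07, with 46.7% of genes called). The LP08 level was 26.7-fold lower, a log2 change of -4.74 (SE 0.32, edgeR adjusted p 4.53e-11, with 49.7% of genes called). On the log2 scale the fall was deeper in LP08, with an interaction of -2.77 (SE 0.40, edgeR adjusted p 7.08e-06), a test that called 30.4% of genes. Of all genes tested, 257 had a lower log2 change than Bra020445 in LP08 and 728 a lower one in Chiifu.

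**Figure D3:**
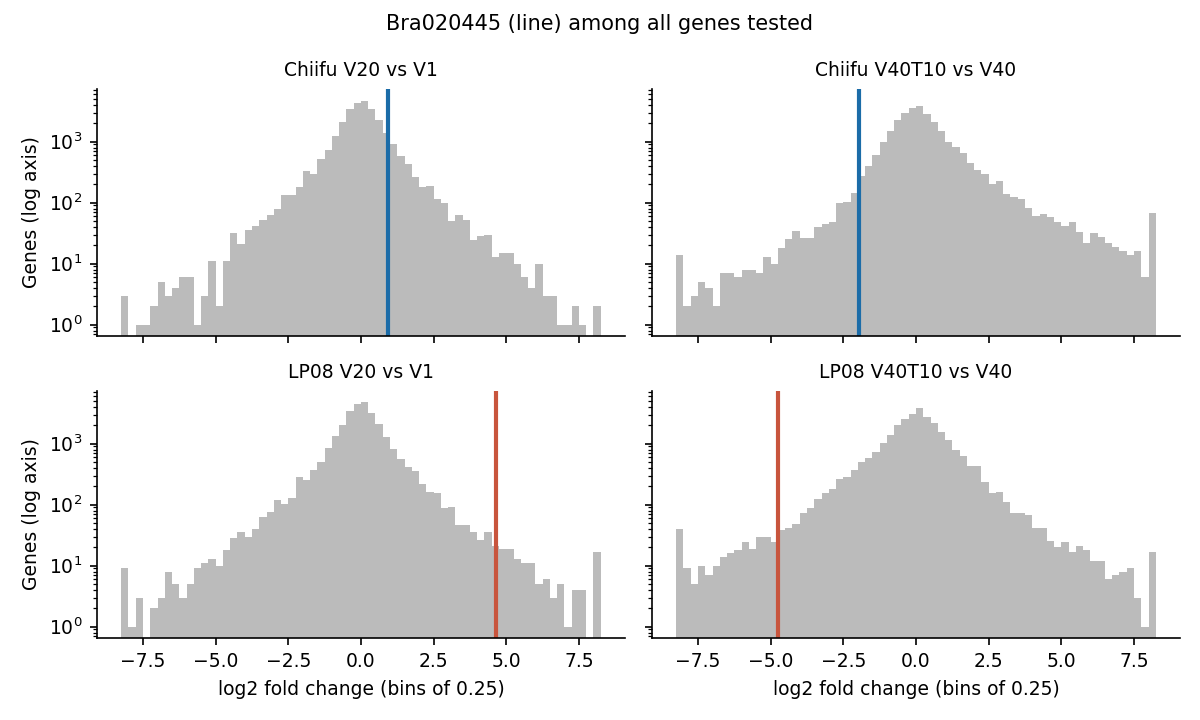
Log2 fold changes of all 28712 genes tested (grey, bins of 0.25, log axis for the number of genes; the outermost bins hold all values beyond) for V20 against V1 and V40T10 against V40, with Bra020445 as a line in each cultivar. The line lies at 0.94 and -1.97 in Chiifu and at 4.63 and -4.74 in LP08.

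The return to warmth was then set against the state before cold. In Chiifu the V40T10 and NV libraries overlapped, and the log2 difference of -0.16 (SE 0.23, 95% interval -0.65 to 0.32) did not pass the test (edgeR adjusted p 0.612, with 41.1% of genes called). Its sign depended on the scaling, as it was 0.18 with library totals in place of TMM factors. In LP08 the 33 counts at V40T10 stood against 0 at NV. The V40T10 mean was 12.9 times the limit for NV and the lowest library 11.9 times. The difference passed the test (edgeR adjusted p 6.52e-06, with 42.8% of genes called). The LP08 level at V40T10 overlapped with that at V1, with a log2 difference of 0.37 (SE 0.41, 95% interval -0.48 to 1.22, edgeR adjusted p 0.454, with 58.5% of genes called). Without LP08 V1 replicate 1 this was 0.85 (edgeR adjusted p 0.117), without replicate 2 it was 0.16 and without replicate 3 it was 0.18, in a range of adjusted p from 0.117 to 0.800 over the alternatives. The LP08 level at V40T10 was 3.75% of that at V40, while in Chiifu V40T10 held 25.4% and NV 28.4% of the V40 level.

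Treatments were also compared over both cultivars at once, by an exact two-sided permutation test of log2 CPM with libraries exchanged within each cultivar, which allows 400 arrangements. In this exact test V1, V20 and V40 against NV each gave p = 0.005, and so did V40T10 against V40, which is the smallest p these libraries allow. In each of these comparisons the libraries of both treatments did not overlap in either cultivar. V40T10 against NV gave an exact p of 0.08, with a mean log2 difference of 1.42 over both cultivars, although Chiifu alone leaned the other way. The size of this mean depends on the prior count of 2 in log2 CPM, since LP08 NV held 0 counts.

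As a ratio, the gap between the cultivars was smaller at V20 and V40 than at the other treatments. In CPM this did not hold for V40, with LP08 minus Chiifu at -7.29 at NV, -9.08 at V1, -5.75 at V20, -8.01 at V40 and -5.86 at V40T10. The V20 value was the smallest in size, close to that at V40T10. LP08 held 0 counts at NV, 5.36% of the Chiifu mean at V1, 68.8% at V20, 68.8% at V40 and 10.1% at V40T10. At V40T10 the log2 difference was -3.31 (SE 0.33, edgeR adjusted p 3.64e-09, with 58.7% of genes called), and no library of one cultivar overlapped with the other. At V20 it was -0.54 (SE 0.22, 95% interval -1.003 to -0.07), which missed the threshold with an edgeR adjusted p of 0.0584, where 41.8% of genes were called. The V20 libraries did not overlap, and over the alternatives the adjusted p ranged from 0.0111 to 0.179, being 0.0363 without Chiifu V20 replicate 3, the lowest of its group. At V40 the difference was also -0.54 (SE 0.22, 95% interval -0.999 to -0.08, edgeR adjusted p 0.0558, with 42.3% of genes called), and the libraries overlapped. Without LP08 V40 replicate 1, the highest of its group, it was -0.88 with an adjusted p of 0.00353, in a range from 0.00353 to 0.289 over the alternatives.

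The difference between the responses on the log2 scale passed the test at every treatment against NV. With the limit in place of LP08 NV, the fold over NV was greater in LP08 than in Chiifu. By group means it was 7.63 times that of Chiifu at V1 (edgeR adjusted p 0.00111, with 9.22% of genes called). At V20 it was 97.8 times that of Chiifu (edgeR adjusted p 2.91e-08, with 10.3% called). At V40 it was again 97.8 times (edgeR adjusted p 2.32e-08, with 12.3% called), and at V40T10 14.4 times (edgeR adjusted p 3.17e-05, with 27.2% called). These ratios share the NV libraries of both cultivars, and their size was set by the 0 counts of LP08 NV. They leave out the error of the other group means, of which LP08 V1 rests on 28 counts. The call at V1 was lost with limma voom weights per group, with an adjusted p of 0.0734 against a lowest value of 0.000619 over the alternatives.

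The gains were also compared in CPM, on the linear scale, a choice made after these values were seen. From NV to V20 the mean rose by 11.1 ± 1.96 CPM in Chiifu and 12.7 ± 1.05 CPM in LP08 (SE), a difference of 1.54 ± 2.22 CPM for LP08 minus Chiifu, which was -0.23 CPM without Chiifu V20 replicate 3. From NV to V40 the gains were 18.4 ± 2.49 and 17.6 ± 3.87 CPM, with a difference of -0.72 ± 4.6 CPM, which was -4.39 CPM without LP08 V40 replicate 1 and 2.19 CPM without its replicate 2. At V1 the gains were 2.3 ± 0.797 CPM in Chiifu and 0.514 ± 0.156 CPM in LP08, a difference of -1.79 ± 0.812 CPM, so that in CPM the V1 gain was the smaller one in LP08. The mean change from V40 to V40T10 was -19.1 ± 2.45 CPM in Chiifu and -17.0 ± 3.87 CPM in LP08. The differences in gain at V20 and V40 were smaller than their standard errors, and the standard errors are wide enough to hide a difference of several CPM. No test was run on this scale.

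**Figure D4:**
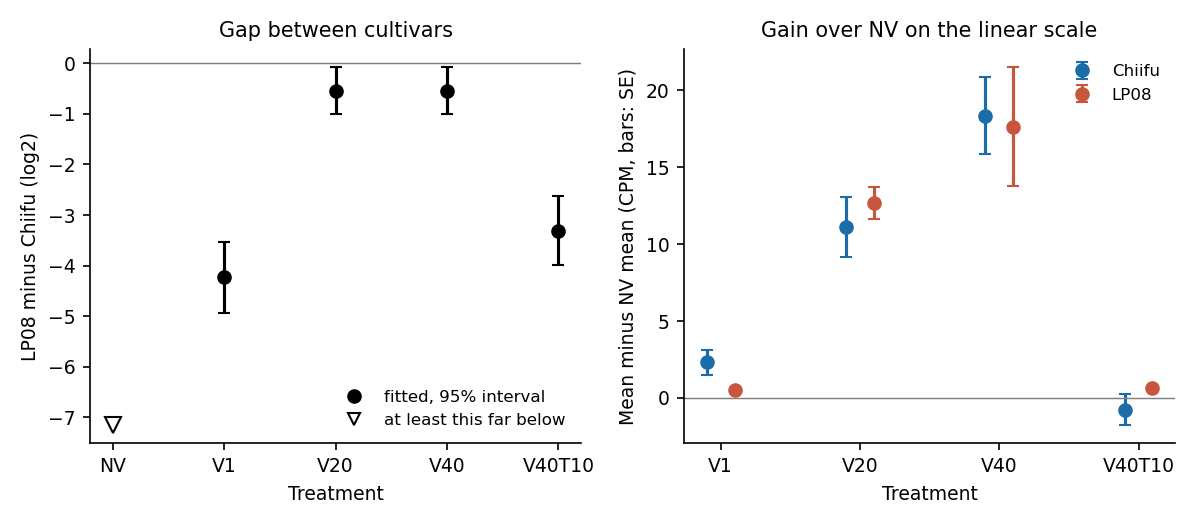
Left, LP08 minus Chiifu on the log2 scale by treatment, with 95% intervals and an open triangle where LP08 held 0 counts and the difference is at least that large; right, mean level minus the NV mean of the same cultivar in CPM, with standard errors. The log2 gap is smallest at V20 and V40, both at -0.54, and the gains in CPM of both cultivars lie within their errors of each other at V20 and V40.

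Ordered by mean level, the 10 groups ran from Chiifu V40 at 25.7 CPM through Chiifu V20, LP08 V40, LP08 V20, Chiifu V1, Chiifu NV and Chiifu V40T10 to LP08 V40T10, LP08 V1 and LP08 NV at 0. Of the 9 steps between neighbours, 2 passed the test, from Chiifu V40T10 to LP08 V40T10 and from LP08 V1 to LP08 NV. The other 7 did not pass the adjusted threshold of the edgeR test, and in 3 of them the libraries did not overlap, namely Chiifu V40 against V20, LP08 V20 against Chiifu V1, and Chiifu V1 against NV. Among them, Chiifu V20 and LP08 V40 overlapped, with a log2 difference for LP08 of -0.06 (SE 0.22, edgeR adjusted p 0.852, with 45.2% of genes called). LP08 V20 exceeded Chiifu V1 by 0.40 (SE 0.23, edgeR adjusted p 0.141, with 56% of genes called).

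Gene patterns were compared with that of Bra020445 by the Pearson correlation of log2 CPM over the 30 libraries, which share cultivar, treatment and depth, so the values are descriptions. Over 28711 other genes the median was 0.0092, and 4 genes reached 0.9 while 4 lay at -0.9 or below. The most alike were Bra029259 at 0.917 and Bra010754 at 0.902. By Spearman's rho over the same libraries Bra029259 stood at 0.751 and ranked 414, and Bra010754 stood at 0.897 and ranked 3. Mean levels of Bra010754 were 16.0, 24.3, 29.0, 27.8 and 19.8 CPM in Chiifu and 8.41, 15.1, 28.6, 23.7 and 8.52 CPM in LP08 at NV, V1, V20, V40 and V40T10. It shared with Bra020445 the high levels at V20 and V40 and the lower LP08 level at NV, V1 and V40T10, but it was present at NV in LP08. Within Chiifu alone Bra029259 had a correlation of 0.492 and ranked 5322 of 28711 genes, and within LP08 it had one of 0.924 and ranked 109. Bra010754 had 0.832 in Chiifu and 0.891 in LP08.

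The most opposite genes were Bra022688 at -0.932 and Bra013175 at -0.927, with Spearman's rho at -0.78 and -0.892. Bra022688 had 0 counts in all Chiifu libraries and at most 0.729 CPM in an LP08 library, so its place rests on few counts. Bra013175 stood at 62.2 ± 32.1 CPM in LP08 NV, 9.69 ± 6.17 CPM at V1, 0 counts at V20 and V40, and 20.6 ± 10.7 CPM at V40T10 (SD, n = 3 each). In Chiifu its NV libraries ranged from 0 to 9.37 CPM. Within 1 cultivar, over 15 libraries, 177 genes reached a correlation of 0.9 in Chiifu and 207 in LP08, and 15 genes did so in both.

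**Figure D5:**
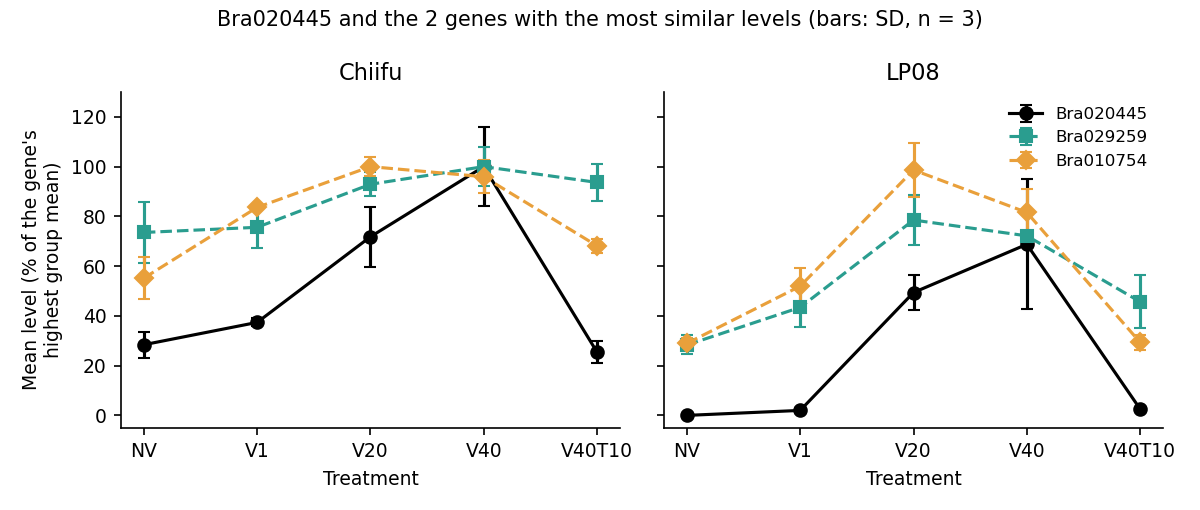
Mean level by treatment as a percentage of each gene's highest group mean (bars are SDs of 3 libraries) for Bra020445 and the most similar genes over the 30 libraries, Bra029259 and Bra010754, in Chiifu (left) and LP08 (right). In LP08 all of them are highest at V20 or V40, with Bra020445 alone at 0 at NV, and in Chiifu Bra029259 stays near its V40 level at V40T10.

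A list of 38 symbols of vernalization, flowering and cold-response genes, among them VIN3 itself, VRN5, PRC2 subunits, FLC, FT and SOC1, could not be set beside Bra020445, because the RefSeq table used here pairs 0 of them with an identifier of the count tables.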

How the data were processed

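Whole-plant RNA of 2 Brassica rapa cultivars under 5 treatments was sequenced, with 3 libraries per group, from TruSeq stranded mRNA libraries per the labels' protocols. Tools listed in the submitters' processing notes are FastQC, TopHat2, HTSeq and edgeR. Tool versions, strand setting, annotation and build are not given in the sources used. Each library's table, as deposited, holds whole-number counts per gene without normalization, in 42186 gene rows and 5 summary rows. The summary rows entered no library size and no test. Alignments outside genes made up 6.91 to 11.6% and those at several places 2.67 to 7.29%, so reads shared with a near-identical copy of Bra020445, or from its antisense strand, may be missing or misplaced. Every pair of replicate libraries differed beyond sampling noise, with a chi-square per degree of freedom of 7.01 or more. It was 55.0, 126.6 and 122.9 for the Chiifu NV pairs and at most 27.6 in any other group. Each Chiifu comparison with NV and each interaction against NV rests on the Chiifu NV libraries. Of the gene identifiers, 1 matched the RefSeq table (51589 rows, assembly CAAS_Brap_v3.01), and it was not Bra020445.

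The test was that of edgeR 4.0.16, run in R 4.3.3 (quasi-likelihood F test, 1 mean per group over all 30 libraries, TMM factors, filterByExpr, 28712 genes). For Bra020445, 29 comparisons were run, 7 of them interactions, with Benjamini-Hochberg adjustment over all genes within each. Standard errors come from the fitted information and the gene's quasi-likelihood dispersion, and 95% intervals are unadjusted. Fold changes against LP08 NV divide the mean of the other group by the limit of 3 counts over LP08 NV. They leave out the error of that mean and are not strict lower bounds. Limits cover counting error only, since PCR copies of a molecule are counted as separate reads. Log2 CPM used a prior count of 2. The fit was tested on simulated data in which only LP08 V40 was changed. These data do not cover a group without counts, such as LP08 NV for Bra020445. Alternatives were RLE factors, library totals, no filter, DESeq2 1.42.0, limma 3.58.1 voom with weights per group, the compared groups alone, the replicate number as a block, and each library left out. Same-numbered libraries did not deviate together: their correlations ran from -0.29 to 0.27, and in 0 of 22 comparisons were all 3 above 0.1. The genes named by rule are Bra020445 and the 2 most and 2 least correlated with it; those named under the closing observations were chosen after their values were seen. The member and lists were chosen with earlier results of these data known.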

Additional observations from a re-analysis of the deposited data

Results flagged for a closer look

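On the log2 scale, the response of Bra020445 differed between the cultivars in 6 of 7 interaction tests. Against NV, the fold increase was greater in LP08 at V1 (edgeR adjusted p 0.00111), V20 (2.91e-08), V40 (2.32e-08) and V40T10 (3.17e-05), where LP08 NV held 0 counts in all 3 libraries. In CPM the mean gain at V1 was smaller in LP08. LP08 minus Chiifu was -1.79 ± 0.812 CPM (SE), a difference that was not tested. From V1 to V20 the log2 change was greater in LP08 by 3.69. From V40 to V40T10 the log2 interaction was -2.77, a deeper fall in LP08 as a ratio. In CPM the mean change was -17.0 in LP08 and -19.1 in Chiifu. LP08 minus Chiifu was 2.15 ± 4.58 CPM (SE) for this step, which was not tested either. From V20 to V40 the interaction did not pass (edgeR adjusted p 1.00).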

How the results depend on the processing

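Over 29 comparisons, 426 values were recomputed under other settings; 416 kept their direction and side of the threshold, 2 lost the call, 8 gained one and 0 reversed. With limma voom weights per group, Chiifu V20 against NV (1.30) and the V1 interaction (adjusted p 0.0734) lost the call, while Chiifu V40 against V20 (0.49) and LP08 against Chiifu at V20 (-0.53) and V40 (-0.59) gained one. With the compared groups alone, LP08 against Chiifu at V20 (-0.54) and LP08 V20 against Chiifu V1 (0.41) gained one, as did the latter with library totals (0.56). With 1 library left out, LP08 minus Chiifu at V20 ran from -0.67 to -0.44, and its V40 value ran from -0.88 to -0.32. The cause was not tested. The replicate block changed no call (Chiifu V40 against NV 1.82). Library totals moved log2 differences by up to 0.61 in size, RLE factors by up to 0.057. LP08 V1 against NV had no value with the compared groups alone, because the gene did not pass the filter there. Without Chiifu NV replicates 2 and 3, chosen after seeing the data, Chiifu V40 against NV was 1.62 (adjusted p 0.000559). The share of all genes called was lower or higher with the compared groups alone, a fit that also changes the filter and the scaling: it was 20.5 instead of 45.9% for Chiifu V40 against NV, 19.8 instead of 45% for LP08 against Chiifu at NV, and 4.86 instead of 0.261% for Chiifu V40 against V20. Levels under 1 CPM rest on 6 to 14 counts per library.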

Other observations

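Genes with 0 counts in LP08 NV were counted at cutoffs that Bra020445 itself meets, so the numbers are a description. All of these genes passed the filter on low counts through other groups. Of the 28712 genes tested, 905 had no count in the 3 LP08 NV libraries, and 195 of these were at 5 CPM or more in Chiifu NV. Of the 195, 4 reached 10 CPM or more in LP08 V40, namely Bra020445, Bra031335, Bra039513 and ENSRNA049462696, named here after their values were seen. Bra031335 stood at 130.5, 66.3 and 59.3 CPM in the LP08 V40 libraries and at 0 counts in all 3 LP08 V40T10 libraries. Bra039513 went from 0 counts in LP08 NV to 22.6, 19.1 and 15.4 CPM at V1 and stayed between 56.8 and 68.6 CPM at V40T10. Its level in LP08 V20 replicate 1 was 0, against 28.3 and 28.0 CPM in the other libraries of that group. ENSRNA049462696 was at 0 there too, against 291 and 153 CPM. Both belong to the 4 genes described earlier that had no count in any LP08 NV library or in LP08 V20 replicate 1. Of the 4 genes at 10 CPM or more in LP08 V40, 2 were under 1 CPM at LP08 V40T10, Bra020445 and Bra031335.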
